A study of Mus musculus with 11 samples.

Results

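Ribosome production was followed here through 60 genes in the villi of the mouse small intestine: 22 RNA polymerase subunits, taken as every gene whose platform symbol begins with Polr apart from the mitochondrial enzyme, and 38 listed nucleolar genes. The platform table named 19057 genes in all. Of the 60, 42 had a probe above background often enough to be tested, 15 had probes that stayed below that limit, and Npm3, Fbl and Ddx18 were not analysed here. The same holds for Polr2a, Polr2b, Polr2i, Polr2k and Polr3gl, so the catalytic core of polymerase II was not measured. Subunits that the platform lists under older names (Twistnb, Cd3eap and Znrd1, now Polr1f, Polr1g and Polr1h) lie outside the symbol rule and are described beside the members as 3 further polymerase I subunits.

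The samples were 5 arrays of Villin-Gremlin mice and 6 arrays of wild type mice, all C57Bl/6J and 5 months old; the design text gives 6 of each, and these 11 arrays were analysed. Villin-Gremlin mice express Gremlin, which binds bone morphogenetic proteins outside the cell and blocks them, from the Villin promoter of the intestinal epithelium. The mice share no other stated allele or treatment, and no label says how many mice stand behind an array, so each p-value speaks only of the spread among these arrays, which may be technical. Villi are a mixed tissue of absorptive epithelium, stroma and leukocytes, and in such bulk RNA fewer cells of a type and less RNA per cell cannot be told apart.

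A ribosome begins in the nucleolus, where polymerase I transcribes the long precursor of the large ribosomal RNAs, while polymerase III makes the smallest ribosomal RNA and the transfer RNAs and polymerase II the messenger RNAs of ribosomal proteins and assembly factors. Small nucleolar ribonucleoproteins (snoRNPs) then modify the precursor, and separate sets of factors cut and fold it into the small and the large subunit. In the intestine this machinery is known to be most active in the dividing cells of the crypt, and differentiating cells that move up the villus lower it.

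Most of the polymerase and nucleolar genes that could be tested were higher in Villin-Gremlin villi. Among the 42 tested members, 34 rose, 0 fell and 8 did not pass (limma, adjusted p under 0.05 over all 8234 genes tested), where 18.0% of all genes tested were called higher. The groups did not overlap, with every Villin-Gremlin array above every wild type array, for 26 of the 42 members, against 10.9% of all genes. The median change was a log2 of 0.80 over the 26 nucleolar genes and 0.64 over the 16 Polr genes, against 0.00 over all genes. Box H/ACA proteins led with Nhp2, at 3.46-fold, while the subunits found only in polymerase II or only in polymerase III moved little at the median, by 0.15 and 0.13. Because 6 members (Polr1e, Nop14, Nop56, Rrp9, Nob1 and Wdr43) entered the test through Villin-Gremlin arrays, being above background on all of these and on fewer than 5 wild type arrays, such counts describe the genes that could be measured and no more.

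**Figure D1:**
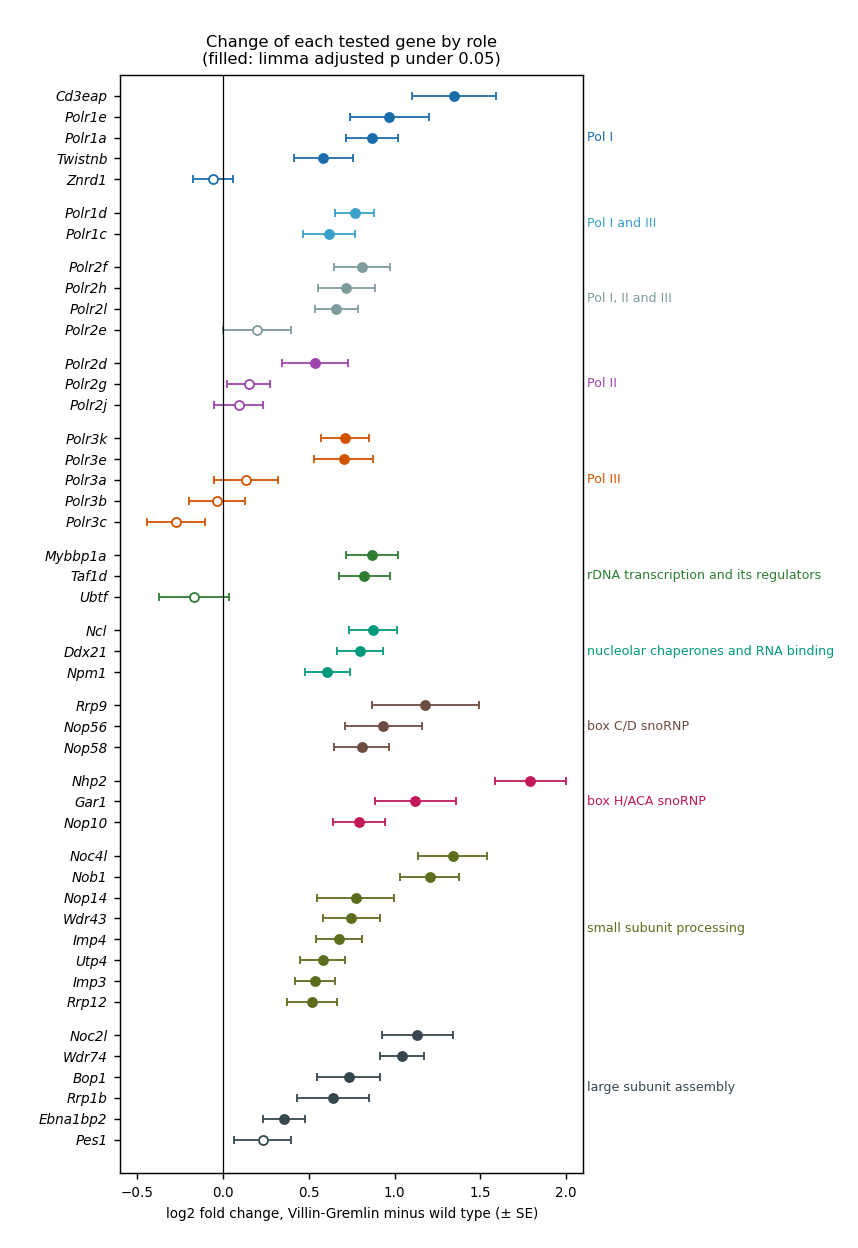
Log2 fold change of each tested gene, Villin-Gremlin minus wild type, with the SE of the limma fit as bars and genes grouped by role; filled points passed an adjusted p under 0.05. The nucleolar groups lie to the right of 0 apart from Ubtf, and Pes1 is the other nucleolar gene that did not pass, and open points gather among the subunits of polymerases II and III.

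Grem1, the gene of the transgene product, averaged 13.93 in Villin-Gremlin and 6.09 in wild type villi (log2 normalized signal), a change of 7.84 ± 0.57 (SE). Between 13536 and 14808 of 45281 probes were detected per array at median raw signals of 157 to 207. Villin-Gremlin 5 and wild type 1 stood apart from their groups on the second principal component; without both, 23 of 26 nucleolar genes, 3 of 5 polymerase I subunits and 5 of 6 shared subunits rose. Vil1, the defining structural gene of the absorptive villus epithelium, averaged 14.23 ± 0.15 in Villin-Gremlin and 14.57 ± 0.14 in wild type arrays (SD, n = 5 and 6), and 4 of 10 tested markers of that epithelium fell. The list mean of these 10 markers was -0.69 to -0.25 in Villin-Gremlin and -0.13 to 0.15 in wild type arrays, without overlap. Other cells moved with the groups as well, and those values stand beside the array-by-array account further on.

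Promoter sequences are shown for members that rose and for Cd3eap, to make visible the E-box CACGTG, a palindrome bound by Myc and related helix-loop-helix factors. They come from the RefSeq table for GRCm38.p6 and run from 250 bases before to 50 bases after the start site, which 50 of the 60 members had. Capitals mark CACGTG. The genes were picked after their values were known: Cd3eap, a polymerase I subunit with 2 copies, Polr3e of polymerase III, Utp4 and Wdr43 of the small subunit processome, and Nhp2, the largest increase, in whose window these letters do not occur.
Cd3eap, chr7:19359434-19359733, minus strand: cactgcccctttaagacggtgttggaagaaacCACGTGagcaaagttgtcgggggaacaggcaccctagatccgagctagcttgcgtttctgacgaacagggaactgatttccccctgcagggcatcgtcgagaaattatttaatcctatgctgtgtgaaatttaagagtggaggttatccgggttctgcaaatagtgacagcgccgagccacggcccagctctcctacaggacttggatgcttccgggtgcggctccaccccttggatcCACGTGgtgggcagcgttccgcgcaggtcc
Polr3e, chr7:120917528-120917827, plus strand: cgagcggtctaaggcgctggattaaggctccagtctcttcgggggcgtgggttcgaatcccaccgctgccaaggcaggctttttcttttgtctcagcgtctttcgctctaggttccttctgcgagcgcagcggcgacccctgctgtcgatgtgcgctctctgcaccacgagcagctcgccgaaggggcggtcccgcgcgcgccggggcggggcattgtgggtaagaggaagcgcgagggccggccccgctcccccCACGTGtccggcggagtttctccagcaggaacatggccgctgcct
Utp4, chr8:106893390-106893689, plus strand: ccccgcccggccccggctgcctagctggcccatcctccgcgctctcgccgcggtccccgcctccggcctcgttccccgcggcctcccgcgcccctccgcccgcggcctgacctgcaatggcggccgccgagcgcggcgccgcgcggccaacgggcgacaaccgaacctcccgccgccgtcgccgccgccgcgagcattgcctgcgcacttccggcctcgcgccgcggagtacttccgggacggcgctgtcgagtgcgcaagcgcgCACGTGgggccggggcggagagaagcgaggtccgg
Wdr43, chr17:71615965-71616264, plus strand: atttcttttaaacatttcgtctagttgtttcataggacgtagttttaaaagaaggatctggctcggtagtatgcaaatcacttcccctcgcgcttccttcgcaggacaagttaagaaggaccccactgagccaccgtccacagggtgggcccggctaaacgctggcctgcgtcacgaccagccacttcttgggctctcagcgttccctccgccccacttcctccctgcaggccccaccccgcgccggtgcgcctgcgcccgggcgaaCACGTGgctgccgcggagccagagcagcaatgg
Nhp2, chr11:51619523-51619822, plus strand: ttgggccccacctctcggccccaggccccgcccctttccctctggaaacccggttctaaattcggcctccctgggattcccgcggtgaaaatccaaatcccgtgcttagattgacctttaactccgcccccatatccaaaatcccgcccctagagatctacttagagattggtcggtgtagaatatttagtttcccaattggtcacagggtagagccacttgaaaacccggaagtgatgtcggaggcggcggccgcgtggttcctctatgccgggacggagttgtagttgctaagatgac
Counted in bases from the end of the 250 upstream bases, the E-box began at +5 in Polr3e, +15 in Utp4 and +17 in Wdr43, and at -218 and +20 in Cd3eap. It was found in the first listed window of 6 of 30 members that rose (20%), namely Polr3e, Utp4, Wdr43, Imp4, Mybbp1a and Polr2h, and in 2 of 6 members that did not pass. The share was 12.7% over 1224 genes called higher with a window, 10.7% over 6760 tested genes with a window and 7.24% over all 27025 genes of the table. These shares are descriptions of letters in a window.

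Against 18.0% of all genes tested, 4 of 5 tested subunits proper to polymerase I rose, with a median log2 change of 0.87. Among these, Polr1e and Cd3eap entered the test through Villin-Gremlin arrays, being above background on fewer than 5 wild type arrays. Polr1a, the largest subunit, which lines the catalytic centre, read 7.25, 7.74, 7.65, 7.48 and 7.55 (log2 normalized signal) on Villin-Gremlin arrays 1 to 5, against a lowest, median and highest value of 6.37, 6.67 and 6.96 in wild type. All 5 Villin-Gremlin values lay above all wild type values. The change was 0.87 ± 0.15 (SE), or 1.82-fold, with an adjusted p of 0.000763. A second, dimmer Polr1a probe, above background on 5 arrays, gave 0.42 and did not pass (adjusted p = 0.147 over probes).

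Polr1b, the second largest subunit and partner of Polr1a in the active centre, stayed below the detection limit of the test. Its brightest probe cleared background on 4 of 5 Villin-Gremlin and on 0 of 6 wild type arrays, at signals of 6.49, 6.68, 6.03, 6.02 and 6.77 in Villin-Gremlin against 5.02, 5.35 and 5.86 (lowest, median, highest) in wild type. The values did not overlap, and a second probe was above background on no array. Fitted without the detection filter, Polr1b differed by 1.04 ± 0.18 (SE, adjusted p = 0.0022). As no wild type array detected it, this is not a measured size of change.

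Cd3eap and Polr1e form the TFIIF-like pair of polymerase I, which helps the enzyme start and elongate. Cd3eap read 7.16, 7.37, 7.99, 7.32 and 7.93 in Villin-Gremlin arrays, against 5.54, 6.28 and 6.85 in wild type. No wild type array reached the lowest Villin-Gremlin one, and the change of 1.35 ± 0.24 (SE, adjusted p = 0.00105) was the largest of any polymerase subunit tested. Polr1e read 6.62, 6.31, 7.17, 6.13 and 6.85 in Villin-Gremlin arrays, with wild type at 4.89, 5.73 and 6.13. Villin-Gremlin 4 met the top of the wild type range, so the groups touched. The fitted change was 0.97 ± 0.23 (SE, adjusted p = 0.00592), and only 1 of 6 wild type arrays had the gene above background. For Cd3eap 4 of 6 wild type arrays did.

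Twistnb, in the stalk that contacts the initiation factor, also rose, by 0.59 ± 0.17 (SE, adjusted p = 0.0177), with means of 9.09 ± 0.31 in Villin-Gremlin and 8.50 ± 0.28 in wild type arrays (SD). Its second probe gave 0.16 (adjusted p = 0.49 over probes), and the call was lost when kept probes were averaged (adjusted p = 0.073). Znrd1, the zinc ribbon subunit that trims the nascent RNA, did not pass, at 10.93 ± 0.11 in Villin-Gremlin and 10.99 ± 0.17 in wild type arrays (SD), a difference of -0.06 ± 0.11 (SE).

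**Figure D2:**
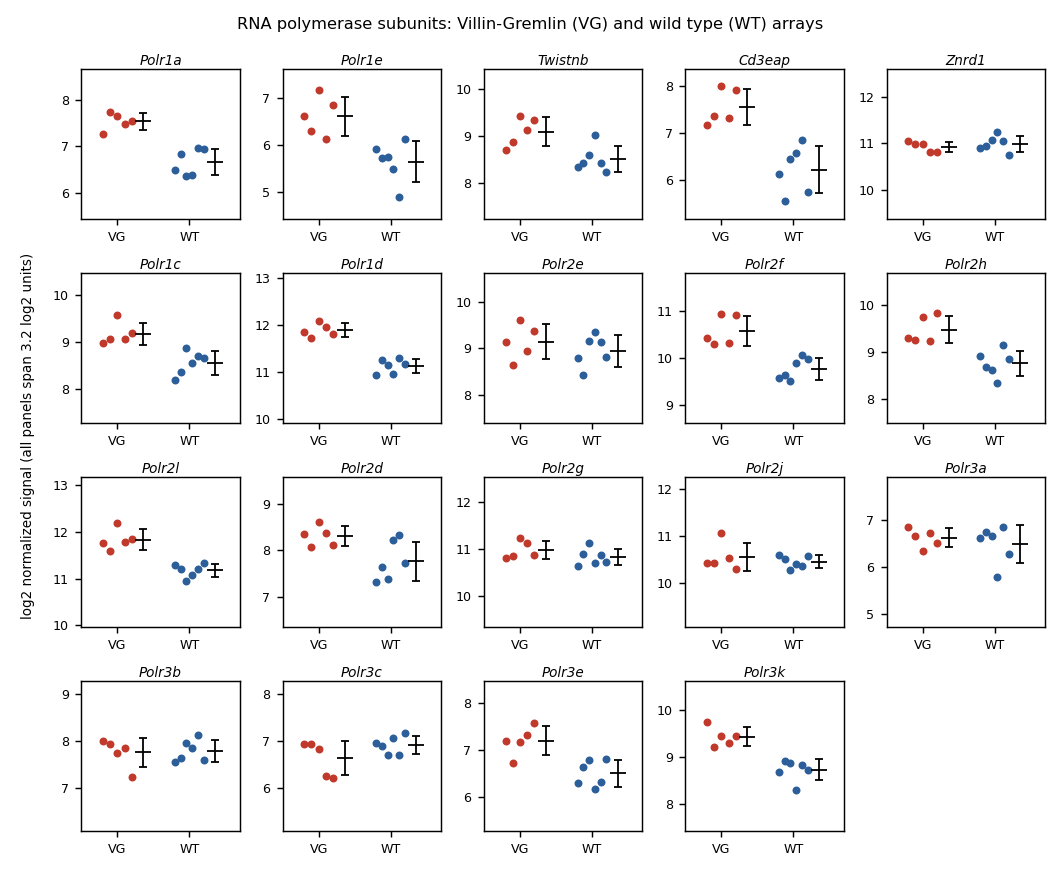
Log2 normalized signal of each polymerase subunit tested, 1 panel a gene, with Villin-Gremlin arrays 1 to 5 (VG, red) left of wild type arrays 1 to 6 (WT, blue); bars give the mean and SD, and every panel spans the same number of log2 units. Polr1a, Polr1c, Polr1d, Polr2f, Polr2l and Polr3k separate the groups, whereas Znrd1, Polr2g, Polr3b and Polr3c overlap.

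The 6 tested subunits shared between enzymes included 5 that rose, against 18.0% of all genes tested. Polr1d and Polr1c form the alpha-like pair on which polymerases I and III are assembled. Polr1d read 11.85, 11.72, 12.10, 11.96 and 11.81 in Villin-Gremlin arrays and 10.93, 11.16 and 11.29 (lowest, median, highest) in wild type arrays. The 2 groups were clearly apart, by 0.77 ± 0.11 (SE, adjusted p = 0.000287), and a second probe gave 0.62 (adjusted p = 0.0012 over probes). Polr1c read 8.98, 9.06, 9.57, 9.06 and 9.19 in Villin-Gremlin arrays, against 8.18, 8.61 and 8.87 in wild type. It too had no overlap, with a change of 0.62 ± 0.15 (SE, adjusted p = 0.00662).

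Subunits common to polymerases I, II and III are small proteins that hold the jaws and the assembly platform together. Polr2l read 11.76, 11.59, 12.19, 11.78 and 11.86 in Villin-Gremlin and 10.95, 11.21 and 11.33 in wild type arrays, a change of 0.66 ± 0.13 (SE, adjusted p = 0.00156). For Polr2f the Villin-Gremlin values were 10.42, 10.31, 10.94, 10.33 and 10.92, against 9.50, 9.77 and 10.07 in wild type, a change of 0.81 ± 0.16 (SE, adjusted p = 0.00221). Both genes had all Villin-Gremlin arrays on top, and array 3 was the highest in each. Polr2h values were 9.30, 9.25, 9.75, 9.24 and 9.83 in Villin-Gremlin, against 8.34, 8.77 and 9.14 in wild type, a change of 0.72 ± 0.17 (SE, adjusted p = 0.00504), again without overlap. Polr2e did not pass on its brightest probe, at 0.20 ± 0.20 (SE, adjusted p = 0.475), while its other probe gave 0.39 (adjusted p = 0.0469 over probes).

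Only 3 of the subunits proper to polymerase II could be tested and 1 of these rose, against 18.0% of all genes tested. Polr2d, which pairs with Polr2g in the stalk, read 8.36, 8.06, 8.62, 8.37 and 8.12 in Villin-Gremlin arrays, against 7.32, 7.68 and 8.33 in wild type. Wild type 4 and 5 reached into the Villin-Gremlin range. The change of 0.54 ± 0.19 (SE) had an adjusted p of 0.0479, and the call was lost under 14 of 24 alternatives. Its 4 kept probes changed by 0.43 to 0.64, and only the one at 0.64 passed over probes (adjusted p = 0.000435). Polr2g averaged 10.98 ± 0.19 in Villin-Gremlin and 10.83 ± 0.18 in wild type arrays (SD), a difference of 0.15 ± 0.13 (SE, adjusted p = 0.398). The alpha-like Polr2j differed by 0.09 ± 0.14 (SE, adjusted p = 0.66). Polr2c, its alpha-like partner, and Polr2m, which binds the assembled enzyme, were above background on no array.

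The subunits proper to polymerase III split, with 2 of 5 tested having risen, against 18.0% of all genes tested. Crcp, a stalk subunit of this enzyme whose symbol lies outside the rule, did not pass, at -0.02 ± 0.14 (SE, adjusted p = 0.913), which makes 2 of 6. Polr3k, the zinc ribbon subunit used in termination, read 9.74, 9.22, 9.44, 9.30 and 9.44 in Villin-Gremlin arrays, against 8.30, 8.78 and 8.92 in wild type. The groups lay apart, by 0.71 ± 0.14 (SE, adjusted p = 0.0018). Polr3e, of the TFIIF-like pair, read 7.20, 6.73, 7.17, 7.32 and 7.59 in Villin-Gremlin arrays and 6.17, 6.48 and 6.81 in wild type. Villin-Gremlin 2 fell inside the wild type range, and the change was 0.70 ± 0.17 (SE, adjusted p = 0.00698).

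The 2 largest subunits of polymerase III did not pass. Polr3a, the catalytic one, read 6.85, 6.66, 6.33, 6.73 and 6.52 in Villin-Gremlin arrays, against 5.78, 6.63 and 6.86 in wild type, a difference of 0.13 ± 0.19 (SE, adjusted p = 0.619). Polr3b read 8.00, 7.94, 7.75, 7.86 and 7.22 in Villin-Gremlin arrays, against 7.55, 7.75 and 8.13 in wild type, a difference of -0.04 ± 0.16 (SE, adjusted p = 0.889). The ranges of both genes lay across each other. Polr3c, of the initiation trimer, differed by -0.28 ± 0.17 (SE, adjusted p = 0.227). Its trimer partner Polr3f was above background on no array. The other partner Polr3g, known as the form used in embryonic and proliferating cells, was above background on 1 array of each group, at 5.82, 5.50, 5.80, 5.96 and 6.21 in Villin-Gremlin against 5.33, 5.68 and 6.20 in wild type. Polr3d, the partner of Polr3e, was detected on 2 Villin-Gremlin and 0 wild type arrays and differed by 0.72 ± 0.17 without the detection filter (SE, adjusted p = 0.0129). With most of its values at background, that difference is not a measured size of change.

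A subunit that passed beside a counterpart that did not is no evidence that they differ, so 5 counterpart pairs were compared within each array, with an exact two-sided permutation test over all 462 splits of the arrays (smallest p 0.00216) and p-values adjusted over the 5 pairs. The alpha-like Polr1d of polymerases I and III rose more than its polymerase II counterpart Polr2j, by 0.68 ± 0.13 (SE, exact p = 0.00216, adjusted 0.00541). Set to a wild type mean of 0, the difference was 0.37 to 0.85 in Villin-Gremlin and -0.34 to 0.26 in wild type arrays. Of the zinc ribbon subunits it was the polymerase III one that rose more: Znrd1 minus Polr3k was -0.77 ± 0.16 (SE, exact p = 0.00216, adjusted 0.00541). There the range was -0.97 to -0.50 in Villin-Gremlin and -0.25 to 0.68 in wild type arrays, and in neither pair did the groups overlap.

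The other pairs were less separated. Polr1a exceeded Polr3a by 0.73 ± 0.22 (SE, exact p = 0.0173, adjusted 0.0289), with 0.22 to 1.13 in Villin-Gremlin and -0.46 to 0.49 in wild type arrays. Without background correction this difference was 0.34. Twistnb exceeded Polr2g by 0.44 ± 0.16 (SE, exact p = 0.0325, adjusted 0.0406). Both calls were lost when single arrays were left out, the first for 6 and the second for 9 of the 11 arrays. The adjusted p-values were then at most 0.0556 and 0.0774. Each pair was compared on the brightest kept probe of a gene only. On their second probes Polr1a changed by 0.42 and Twistnb by 0.16, beside 0.13 for Polr3a and 0.15 for Polr2g. Polr1e and Polr3e differed by 0.27 ± 0.24 (SE, exact p = 0.303), which the test did not separate. As Polr1e was above background on only 1 of 6 wild type arrays, the size of that difference is limited by signal. By the zinc ribbon pair, polymerase I did not stand above polymerase III at every position compared.

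**Figure D3:**
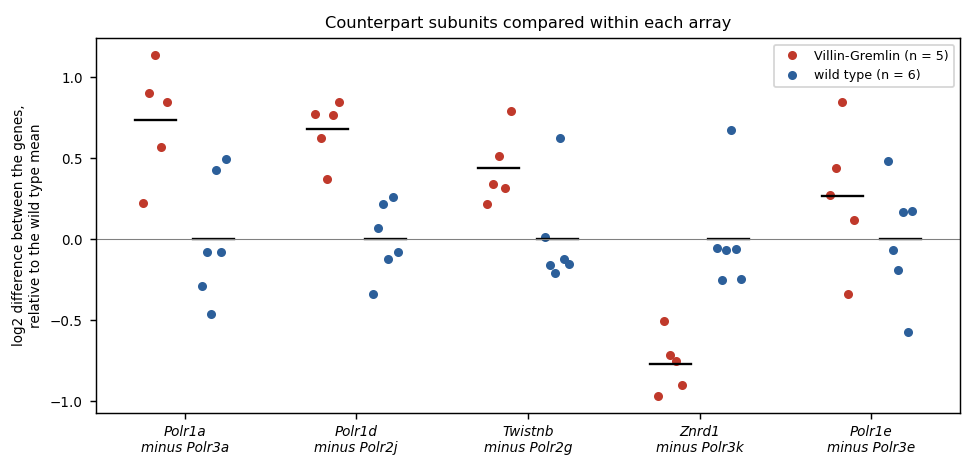
Log2 difference between counterpart subunits on each array, set to a wild type mean of 0, with Villin-Gremlin (red, n = 5) left of wild type (blue, n = 6) and group means as bars. Polr1d minus Polr2j is higher and Znrd1 minus Polr3k lower on every Villin-Gremlin array than on any wild type array, while the other 3 pairs overlap.

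Among nucleolar members, 24 of 26 tested rose, against 18.0% of all genes tested. The transcription factors of the ribosomal genes were few and mixed. Myc, the factor best known for driving ribosome production in growing cells, was above background on 0 of 11 arrays, at 4.73, 5.12, 4.89, 4.62 and 5.20 in Villin-Gremlin against 4.70, 5.00 and 5.26 in wild type, so no change of it could be measured. Mybbp1a, a nucleolar protein that represses ribosomal RNA transcription and takes part in its processing, read 8.99, 8.89, 8.90, 8.35 and 8.86 in Villin-Gremlin arrays, against 7.61, 7.98 and 8.20 in wild type. Even its low array, Villin-Gremlin 4, lay above all of wild type, and the change was 0.87 ± 0.15 (SE, adjusted p = 0.000833).

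Taf1d, part of the selectivity factor that places polymerase I on its promoter, read 8.21, 8.55, 8.85, 8.53 and 8.93 in Villin-Gremlin arrays, against 7.42, 7.83 and 7.98 in wild type, without overlap. It rose by 0.82 ± 0.15 (SE, adjusted p = 0.00105). Ubtf, which binds and opens the ribosomal genes, did not pass on its brightest probe, with -0.17 ± 0.20 (SE, adjusted p = 0.552). Its second probe gave 0.38 (adjusted p = 0.0357 over probes), so the probes of Ubtf disagree in sign.

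All 3 tested chaperones and RNA-binding proteins of the nucleolus rose. Ncl, or nucleolin, read 8.22, 8.41, 8.77, 8.12 and 8.57 in Villin-Gremlin arrays and 7.26, 7.57 and 7.72 in wild type, a change of 0.87 ± 0.14 (SE, adjusted p = 0.000467). The helicase Ddx21 read 9.10, 9.08, 9.66, 9.19 and 9.54 in Villin-Gremlin arrays, against 8.32, 8.49 and 8.68 in wild type, a change of 0.80 ± 0.13 (SE, adjusted p = 0.000624). Npm1, nucleophosmin, a bright and abundant histone and ribosome chaperone, read 12.32, 12.40, 12.82, 12.47 and 12.85 in Villin-Gremlin arrays and 11.82, 11.95 and 12.15 in wild type, a change of 0.61 ± 0.13 (SE, adjusted p = 0.00347). None of the 3 overlapped between groups, and Villin-Gremlin 3 and 5 were the highest arrays for each. Nolc1, which escorts snoRNPs, was above background on 1 Villin-Gremlin and 0 wild type arrays.

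The box C/D snoRNPs guide ribose methylation of ribosomal RNA, and 3 of 3 tested proteins rose. Nop58, a scaffold of the particle, read 10.52, 10.40, 11.19, 10.58 and 11.06 in Villin-Gremlin arrays, against 9.68, 9.98 and 10.16 in wild type, a change of 0.81 ± 0.16 (SE, adjusted p = 0.00217). Its partner Nop56 read 6.92, 6.64, 7.09, 6.61 and 7.82 in Villin-Gremlin arrays, against 5.67, 6.15 and 6.43 in wild type, a change of 0.93 ± 0.23 (SE, adjusted p = 0.00656). Neither scaffold gene overlapped between groups. Rrp9, which belongs to the snoRNP that starts small subunit processing, read 6.34, 6.50, 7.99, 6.43 and 6.28 in Villin-Gremlin arrays, against 5.14, 5.36 and 6.46 in wild type. Here Villin-Gremlin 3 stood far above the other four and wild type 4 reached their level, with a fitted change of 1.18 ± 0.31 (SE, adjusted p = 0.0109). Rrp9 was above background on 1 and Nop56 on 4 of 6 wild type arrays, so both entered the test through Villin-Gremlin arrays. The sizes of their changes are limited by signal.

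The box H/ACA particle, which converts uridine to pseudouridine and also sits on telomerase RNA, gave the largest change of the set. Nhp2 read 9.76, 9.80, 10.15, 10.17 and 10.31 in Villin-Gremlin arrays, against 7.88, 8.01 and 8.94 in wild type. The lowest Villin-Gremlin array stood well above the highest wild type one, and the change was 1.79 ± 0.21 (SE, adjusted p = 4.24e-05). Gar1 read 9.18, 8.96, 9.35, 8.58 and 9.51 in Villin-Gremlin arrays, against 7.27, 8.15 and 8.48 in wild type, a change of 1.12 ± 0.24 (SE, adjusted p = 0.003). For Nop10 the values were 10.42, 10.68, 10.77, 10.87 and 10.65 in Villin-Gremlin, against 9.56, 9.87 and 10.23 in wild type, a change of 0.79 ± 0.15 (SE, adjusted p = 0.00152). Thus 3 of the 4 core proteins rose without overlap, while the fourth, the pseudouridine synthase Dkc1, had probes above background on no array.

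**Figure D4:**
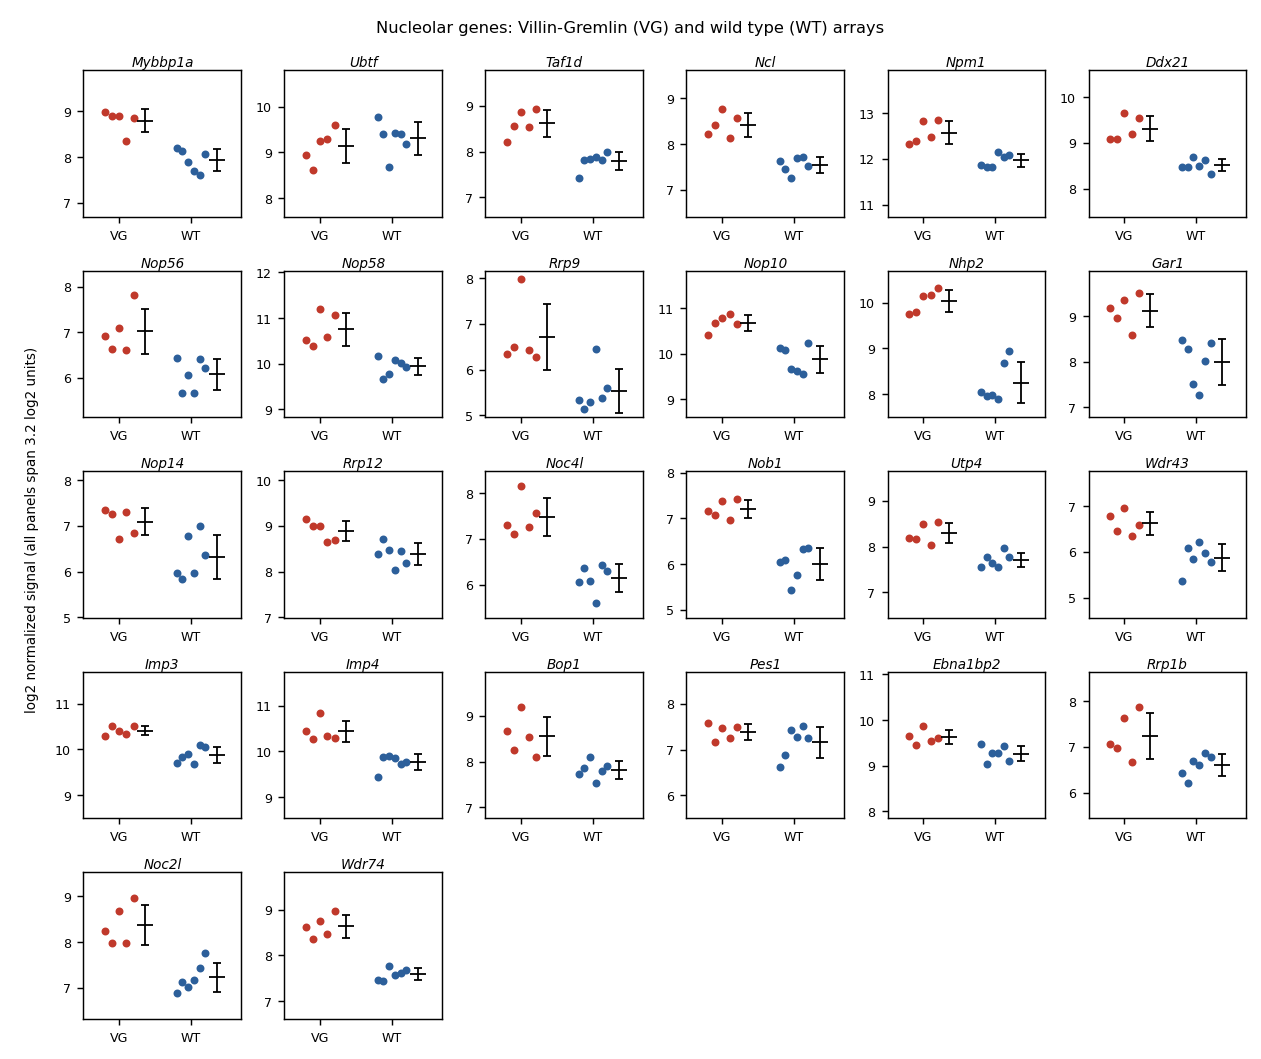
Log2 normalized signal of each nucleolar gene tested, 1 panel a gene, with Villin-Gremlin arrays 1 to 5 (VG, red) left of wild type arrays 1 to 6 (WT, blue), mean and SD as bars and the same span of log2 units in every panel. Nhp2, Noc4l and Nob1 show wide gaps between the groups, Rrp9 shows the single high Villin-Gremlin array, and Ubtf and Pes1 overlap.

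All 8 tested factors of the small subunit rose, by 0.52 to 1.34, against 18.0% of all genes tested. Nob1, Nop14 and Wdr43 were above background on 4, 3 and 2 of 6 wild type arrays and entered the test through Villin-Gremlin arrays. For Noc4l 5 of 6 wild type arrays were above background. Nob1, the nuclease that makes the last cut of the small subunit RNA, read 7.17, 7.08, 7.39, 6.96 and 7.43 in Villin-Gremlin arrays, against 5.43, 6.07 and 6.34 in wild type, a change of 1.20 ± 0.17 (SE, adjusted p = 0.000213). Noc4l, which joins Nop14 in the assembly of the small subunit, read 7.30, 7.10, 8.16, 7.26 and 7.57 in Villin-Gremlin arrays, against 5.60, 6.19 and 6.43 in wild type, a change of 1.34 ± 0.20 (SE, adjusted p = 0.000284). Both genes kept the groups apart, and second probes gave 1.06 and 0.82. Imp4, which docks the initiating snoRNP on the precursor, read 10.44, 10.27, 10.83, 10.34 and 10.29 in Villin-Gremlin arrays, against 9.44, 9.81 and 9.90 in wild type, a change of 0.67 ± 0.13 (SE, adjusted p = 0.0019), also with no overlap.

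The remaining small subunit factors rose as well. Nop14 rose by 0.77 ± 0.22 (SE, adjusted p = 0.017) with overlapping groups, and the processome proteins Wdr43 and Utp4 rose by 0.75 ± 0.16 and 0.58 ± 0.13 (SE, adjusted p = 0.00365 and 0.00392). Imp3, partner of Imp4, rose by 0.54 ± 0.11 (SE, adjusted p = 0.00316) and the export factor Rrp12 by 0.52 ± 0.15 (SE, adjusted p = 0.0148). Bysl and Utp20 had probes above background on no array.

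Of the large subunit factors 5 of 6 tested rose, against 18.0% of all genes tested. Wdr74, which works with a remodelling ATPase on the large subunit precursor, read 8.62, 8.36, 8.75, 8.46 and 8.98 in Villin-Gremlin arrays and 7.45, 7.60 and 7.76 in wild type, a change of 1.04 ± 0.13 (SE, adjusted p = 7.19e-05). Noc2l, a nucleolar complex protein that also inhibits histone acetylation, read 8.25, 7.98, 8.68, 7.98 and 8.96 in Villin-Gremlin arrays, against 6.89, 7.15 and 7.77 in wild type, a change of 1.13 ± 0.21 (SE, adjusted p = 0.0012). In both genes the lowest Villin-Gremlin array stood above all wild type arrays.

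Bop1, Pes1 and Wdr12 form a complex needed for processing of the large subunit RNA, and its members did not show the same values. Bop1 read 8.68, 8.24, 9.19, 8.53 and 8.11 in Villin-Gremlin arrays, against 7.53, 7.83 and 8.10 in wild type, just without overlap, and rose by 0.73 ± 0.18 (SE, adjusted p = 0.00752). Pes1 did not pass, at 7.39 ± 0.17 in Villin-Gremlin and 7.16 ± 0.34 in wild type arrays (SD), a difference of 0.23 ± 0.17 (SE, adjusted p = 0.31). Wdr12 had no probe above background, as was also the case for Rrs1, Nop16 and the nucleolar GTPase Gnl3. The other large subunit factors rose near the threshold, Rrp1b by 0.64 ± 0.21 and Ebna1bp2 by 0.36 ± 0.12 (SE, adjusted p = 0.0322 and 0.0365), and their calls were lost under 10 and 11 of 24 alternatives.

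A wider list of 130 other ribosome biogenesis genes gave 46 higher and 2 lower among 93 tested, at a median of 0.38, where 18.0% of all genes tested were higher and 1319 of 8234 lower. Some of those called higher entered the test through Villin-Gremlin arrays, so these counts too describe only genes that could be measured. Requiring detection on all arrays left 79, of which 36 rose and 2 fell. The genes named from the wider list are those with the smallest adjusted p in each direction. For large subunit factors 21 rose and 1 fell of 39, among them Rpf2 (1.17 ± 0.14) and Rsl1d1 (1.02 ± 0.13), while Sbds, which releases a late blocking factor, fell by 0.41 ± 0.12 (all SE, adjusted p = 7.13e-05, 8.73e-05 and 0.0164). For small subunit factors 14 rose and 1 fell of 33, among them Wdr75 (1.16 ± 0.14) and Pno1 (0.97 ± 0.13), and Tsr1 fell by 0.47 ± 0.14 (adjusted p = 6.4e-05, 0.000165 and 0.019). In the list of snoRNP assembly and exosome genes 10 rose and 0 fell of 16, with the RNA exosome subunit Exosc1 at 1.06 ± 0.14 (adjusted p = 0.000135). Exosc6, of the same complex, averaged 6.76 in Villin-Gremlin and 5.77 in wild type arrays, none of which detected it, so only a bound of at least 1.64-fold higher holds (adjusted p = 0.00058).

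General factors of the 3 polymerases gave fewer calls. Of polymerase I factors 1 of 5 tested rose, Tcof1, the treacle protein that recruits the transcription machinery, by 0.84 ± 0.20 (SE, adjusted p = 0.00583). Of polymerase II factors 7 rose and 1 fell of 19, among them the import factor Gpn1 (0.96 ± 0.13, adjusted p = 0.000134) and Mnat1 of the TFIIH kinase (0.73 ± 0.14, adjusted p = 0.00156), with the elongation factor Supt4a lower at -0.34 ± 0.12 (adjusted p = 0.0467). Of polymerase III factors 3 were higher and 2 lower of 15. For polymerases I and III these shares are near those over all genes. Gtf3a, the factor dedicated to the small ribosomal RNA gene, rose by 1.13 ± 0.18 (adjusted p = 0.000506). Snapc4 averaged 6.38 in Villin-Gremlin and 5.79 in wild type arrays with overlapping groups, and no wild type array detected it, so its change is a bound of at least 1.25-fold higher (adjusted p = 0.0114). Such a bound takes, for each wild type array, the gene's own value or that of the dimmest detected probe, whichever is higher, and sets their mean against the Villin-Gremlin mean. Gtf3c1, the DNA-binding subunit of the next factor, fell by 0.69 ± 0.15, and Maf1, the repressor of polymerase III, fell by 0.46 ± 0.14 (adjusted p = 0.00325 and 0.0186).

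Within the Villin-Gremlin group the set moved unevenly. Averaged over the 26 nucleolar genes, as deviation from the wild type mean of each gene, the Villin-Gremlin arrays stood at 0.73, 0.63, 1.07, 0.63 and 0.96, against -0.08 to 0.13 in wild type. Villin-Gremlin 3 was the highest array for 18 of the 42 members and Villin-Gremlin 5 for 14, while arrays 2 and 4 were the lowest for 15 and 12. The own subunits of polymerase I averaged 0.55 to 1.04 in Villin-Gremlin arrays and -0.11 to 0.13 in wild type arrays, without overlap. Those of polymerase II, at 0.08 to 0.62 in Villin-Gremlin and -0.16 to 0.17 in wild type, overlapped. Those of polymerase III did not, at 0.11 to 0.47 in Villin-Gremlin and -0.25 to 0.11 in wild type arrays, although the closest arrays of the groups nearly met. The median spread within groups was 0.27 for members and 0.27 for all genes (SD, log2).

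Markers of other cells were measured beside these values, against the same background of 18.0% of all genes higher and 1319 of 8234 lower. Of the cycling cell markers 12 of 14 tested rose, with list means of 1.03, 0.99, 1.37, 0.64 and 0.92 on Villin-Gremlin arrays 1 to 5. The list means of wild type arrays were -0.20 to 0.41. Ccnb2 and Mcm3 were above background on no array. Crypt stem cell markers gave 3 higher and 1 lower of 7, with Lgr5, Ascl2 and Smoc2 above background on no array. T cell markers went the other way: 7 of 8 fell, with a list mean of -2.48 to -1.51 in Villin-Gremlin and -0.47 to 0.38 in wild type arrays. Macrophage and dendritic cell markers fell in 2 of 3 tested, and markers of Paneth cells and of stroma passed in 0 of 6 and 0 of 3. The part of cycling cells, of absorptive epithelium or of leukocytes in the changes of the ribosome biogenesis genes was not tested.

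**Figure D5:**
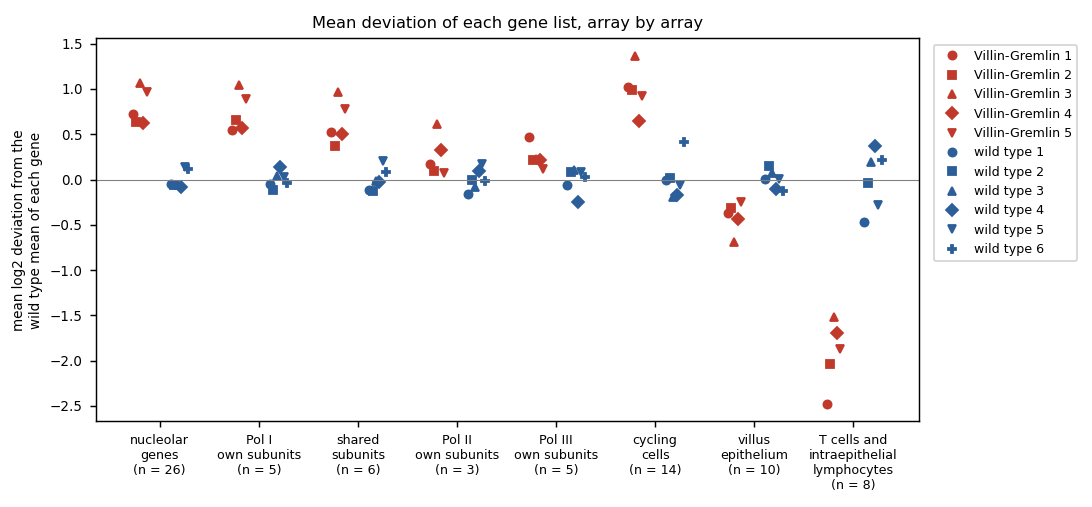
Mean log2 deviation of each gene list from the wild type mean of its genes, with a symbol per array and Villin-Gremlin (red) left of wild type (blue); n is the number of genes averaged. Nucleolar genes, polymerase I subunits, shared subunits and cycling cell markers lie higher on all Villin-Gremlin arrays than on any wild type array. Polymerase III subunits do so narrowly. Markers of T cells and of the villus epithelium lie lower on all Villin-Gremlin arrays.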

How the data were processed

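Total RNA of villi was labelled as biotinylated cRNA and hybridised to Illumina bead arrays, per the labels' protocols. Groups came from the genotype label. The deposited table holds, per its header, a signal intensity per probe and array, not normalized (lowest 119), with a deposited detection p-value. A second deposited table holds the authors' log2 values, made by steps not given in the sources used here, and served as an alternative. Of 45281 probes 34885 carried 1 gene symbol in the platform annotation, 18 several and 10378 none; 34807 matched a current Entrez identifier.

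In limma 3.58.1 under R 4.3.3, background was modelled from the detection p-values (normal-exponential, offset 16), followed by log2 and quantile normalization. Probes with detection p under 0.01 on at least 5 of 11 arrays were kept (14203), and the kept probe that was brightest on average stood for its gene. The 8234 genes were fitted with lmFit and eBayes, Villin-Gremlin against wild type without covariates, and p-values adjusted by Benjamini-Hochberg; a gene changed at an adjusted p under 0.05. A p "over probes" is adjusted over all kept probes. Values for all arrays are given for Myc, Ncl, Npm1, Polr1a, Polr1b, Polr3a, Polr3b, Polr3g and up to 3 changed members of each role with the smallest p; other pathway genes named are those with the smallest p in each direction. The fit was tested on simulated data. Members, lists and tests were chosen with earlier results of these data known. The number of arrays limits the precision. The alternatives were background, offset, scaling, the authors' values, detection filter, probe averaging, array weights, variance prior, replicate block, sex, arrays left out and, chosen after seeing the data, place in the table (first 6 or last 5 columns). Sex was inferred from detected Y-linked genes, with Villin-Gremlin 1 and wild type 3 taken as male.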

Additional observations from a re-analysis of the deposited data

Results flagged for a closer look

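Of 90 groups of arrays examined over the tested genes, 4 held a single array far from the others of its group; chance alone flags about 1 in 20 groups. Rrp9 had 1 such array in each group. Villin-Gremlin 3 read 7.99, with the next Villin-Gremlin array at 6.50, and wild type 4 read 6.46, with the next wild type array at 5.59. Mybbp1a was low on Villin-Gremlin 4, at 8.35 against 8.86 for the nearest array of that group. Taf1d was low on wild type 1, at 7.42 against 7.81 for the nearest wild type array.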

How the results depend on the processing

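Of the 34 changed members 28 kept their call under each of 24 alternatives in which they were fitted, and none of the 8 others gained one; Polr1e, Nop14, Nop56, Rrp9, Noc4l, Nob1, Wdr43 and Polr3a were fitted in 23, since detection on all arrays removes them. Calls were lost for Polr2d (14 alternatives), Ebna1bp2 (11), Rrp1b (10), Nop14 (replicate block), and Rrp12 and Imp3 (median scaling). The polymerase II count of 1 became 0 without background correction, with median scaling, without the detection filter, with the replicate block, sex or place in the table as a term, and without Villin-Gremlin 5 and wild type 1 together, and was 0 to 1 with single arrays left out. Median scaling gave 919 genes higher and 1217 lower of all tested. Requiring detection on all arrays left 3 polymerase I subunits, of which 2 rose, and 20 nucleolar members, of which 18 rose. Twistnb minus Polr2g no longer passed without background correction (0.28, adjusted p = 0.0731), without Villin-Gremlin 5 and wild type 1 (0.35, adjusted p = 0.129) or without any 1 of 9 of the 11 arrays (0.35 to 0.56 over all 11). Polr1a minus Polr3a did not pass without those 2 arrays (0.65, adjusted p = 0.106) or without any 1 of 6 of the 11 arrays (0.64 to 0.86 over all 11), and was 0.34, still past the threshold, without background correction. The cause was not tested. Without background correction the nucleolar median was 0.49 and the polymerase I median 0.38. Arrays with the same number in their titles did not deviate together (correlations of -0.20 to 0.11). The column headers number the arrays otherwise, and that numbering was not checked, so whether arrays were paired stays unknown. The replicate block, by title number, gave 2240 changed genes, 22 nucleolar and 4 polymerase I genes. Genes near background, such as Polr1b and Myc, are limited by signal.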
